A study of Homo sapiens with 7 samples.

Results

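This report concerns the genes for heat shock proteins and their DNAJ (J-domain) partners in a breast cancer cell line. A gene was a member when its symbol in the deposited expression table began with HSPA, HSPB, HSPD, HSPE or HSPH, or with DNAJA, DNAJB or DNAJC and a number. HSPA5, the HSP70 of the endoplasmic reticulum, and HSPG2, which encodes an extracellular proteoglycan, were left out. The choice used names alone and no measured value entered it, although earlier results of these data were known when it was made. It gave 80 members of 26175 genes, 29 with an HSP symbol and 51 with a DNAJ symbol. The genes of the HSP90 family carry other symbols and are described only among the related genes.

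T47D/A1-2 cells, which the sample labels call T-47D, derive from a human breast cancer line, overexpress the rat glucocorticoid receptor and carry an integrated luciferase reporter driven by the MMTV promoter. The cells grew in DMEM with 10% serum and were then kept in medium with 5% charcoal-stripped serum for at least 24 hours. All 7 libraries come from this 1 growth condition, and the labels name neither a heat treatment nor a stressed sample, so no stressed and unstressed values can be compared. RNA level was taken from RNA-seq, of which the 3 replicates had been merged into a single value per gene, given as FPKM, a fragment count scaled by transcript length and by the size of the library. Transcription start sites (TSSs) were taken from Start-seq, which reads the 5′ ends of short capped nuclear RNA, and the calls used come from 1 of 2 Start-seq libraries. Neither assay therefore gave a spread between replicates, the depth of both is unknown, and no difference was tested. The cells carried the markers of the labelled line: all 9 luminal epithelial genes looked up, from ESR1 at 44.1 FPKM to KRT8 at 1142 FPKM, were high, while the basal epithelial genes KRT5 and KRT14 were listed at 0. Of 7 fibroblast and leukocyte genes, COL1A1 was highest at 8.82 FPKM, and the other 6 were below 1.

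Heat shock proteins are molecular chaperones. HSP70 proteins, encoded by the HSPA genes, bind and release unfolded stretches of other proteins in a cycle driven by ATP. J-domain proteins, encoded by the DNAJ genes, deliver substrates to HSP70 and stimulate its ATPase, and the HSP110 proteins act as nucleotide exchange factors that reset it. Small heat shock proteins (HSPB genes) hold unfolding proteins without using ATP, and HSPD1 (HSP60) and HSPE1 (HSP10) form the folding chamber of mitochondria. In the heat shock response the factor HSF1 binds heat shock elements, which are inverted repeats of the unit GAA, and raises transcription of many of these genes, while other members are made constitutively.

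The sequences upstream of the called gene TSSs are shown first, because heat shock elements were counted more often at the members than at all genes. A heat shock element was counted where 2 units faced each other as GAANNTTC or TTCNNGAA within 250 nt upstream of a gene TSS. Each pattern is its own reverse complement, so both strands are covered. An array of 3 units has a further unit in the next step of the repeat. All sequences were read from GRCh37, whose chromosomes are those of hg19, and run 5′ to 3′ on the strand of the gene. Capitals mark the heat shock element.

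Arrays of 3 or 4 units are shown for 4 genes, because they differ in length and in distance from the TSS. HSPA8 (chr11:122932872-122932901, minus strand) is shown from 57 to 28 bases upstream of its TSS and ends in TATAA. HSPH1 (chr13:31736083-31736112, minus strand) is shown over the last 30 bases before its TSS. HSPE1 (chr2:198364786-198364815, plus strand) is shown from 95 to 66 bases upstream, and its 4-unit array also lies upstream of HSPD1 on the other strand. HSPA6 (chr1:161494220-161494329, plus strand) is shown over the last 110 bases before its TSS.
HSPA8: ccTTCTGGAAGGTTCtaagatagggtataa
HSPH1: aaatgccgcagaTTCTGGAAAGTTCtgatc
HSPE1: gctcggTTCCAGAACTTTCCAGAAaatgcc
HSPA6: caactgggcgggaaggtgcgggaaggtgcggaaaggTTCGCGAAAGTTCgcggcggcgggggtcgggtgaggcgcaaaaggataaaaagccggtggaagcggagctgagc

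Elements of 2 units are shown for DNAJB1, for the near-identical pair HSPA1A and HSPA1B, and for HSPB1, whose element lies farther from the TSS. DNAJB1 (chr19:14629207-14629316, minus strand) holds 2 separate elements in its last 110 bases. HSPA1A (chr6:31783200-31783319) and HSPA1B (chr6:31795397-31795516), both on the plus strand, are shown over 120 bases, and HSPB1 (chr7:75931792-75931991, plus strand) over 200 bases. Aligned over 250 bases upstream, HSPA1A and HSPA1B were identical at 234 positions, with 15 mismatches and 2 gapped positions.
DNAJB1: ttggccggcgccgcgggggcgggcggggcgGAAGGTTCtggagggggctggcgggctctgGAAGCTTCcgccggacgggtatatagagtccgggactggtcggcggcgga
HSPA1A: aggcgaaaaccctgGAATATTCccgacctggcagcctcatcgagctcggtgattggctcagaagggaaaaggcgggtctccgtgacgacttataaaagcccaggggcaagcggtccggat
HSPA1B: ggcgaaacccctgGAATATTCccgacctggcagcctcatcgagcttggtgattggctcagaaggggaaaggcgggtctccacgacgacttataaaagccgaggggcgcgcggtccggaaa
HSPB1: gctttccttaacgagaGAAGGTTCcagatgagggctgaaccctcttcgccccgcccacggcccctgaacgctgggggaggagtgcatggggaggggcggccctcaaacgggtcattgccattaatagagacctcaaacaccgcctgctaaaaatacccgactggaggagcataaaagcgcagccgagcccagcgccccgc

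RNA of most members was found in these cells, for which no heat treatment is named. An FPKM of at least 1 was listed for 56 of 80 members (70.0%), where 46.9% of all genes reached it, and an FPKM of at least 10 for 43 members (53.8%), where 28.1% of all genes did. The median FPKM of the members was 14.4, with quartiles of 0.670 and 37.3, beside 0.528 over all genes. The gap was smaller among genes with a called gene TSS, with a median FPKM of 25.8 for the 51 members and 16.6 for all 9767 genes. The sum of FPKM over the members was 3663, and the 5 highest members, HSPB1, HSPA8, HSPD1, DNAJB11 and DNAJA1, made up 58.3% of it. FPKM is scaled by transcript length, so levels of different genes are set side by side on that scale throughout.

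Among the small heat shock proteins, 2 of 7 genes reached an FPKM of 10 and the other 5 were below 1. HSPB1 (HSP27), a small heat shock protein made in many epithelial cells, was listed at 1049 FPKM, and 5 genes of the whole table were higher. HSPB8, which works with the cochaperone BAG3 in the clearance of misfolded proteins, followed at 53.7 FPKM although no gene TSS was called for it. The remaining genes are best known from muscle and testis. Their FPKM was 0.688 for HSPB6, 0.282 for HSPB9, 0.114 for HSPB7 and 0.0189 for HSPB2, and HSPB3 was listed at 0. HSPB7 had a called gene TSS in spite of this low level.

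HSPA4 and HSPA4L were counted with the HSP110 genes. The 12 other HSPA genes, including a pseudogene, ranged from 0.00544 to 661 FPKM. Their median was 7.92, and 6 of them reached an FPKM of 10. HSPA8 (HSC70), the constitutive cytosolic HSP70, was highest at 661 FPKM, and 24 genes of the table lay above it. HSPA9 (mortalin), the HSP70 of mitochondria, was listed at 119 FPKM. HSPA14, a ribosome-associated HSP70, stood at 47.6 FPKM and HSPA13, a microsomal one, at 14.03 FPKM.

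The heat-inducible HSP70 genes differed widely from each other. HSPA1A and HSPA1B, which encode nearly the same protein, were listed at 47.1 and 35.6 FPKM in these cells without a named heat treatment. Because fragments of the pair can map to either gene, the division of reads between them is uncertain. The table lists these genes and HSPA1L on an alternate haplotype of chromosome 6, a second copy of that region, so the levels of all 3 are uncertain for that reason too. HSPA6 (HSP70B′), known as strictly inducible, was listed at 0.325 FPKM, below the median of all genes, and yet had a called gene TSS and an upstream antisense TSS. HSPA12A, a divergent HSP70 relative, stood at 1.80 FPKM. HSPA2 and HSPA1L, both best known from testis, stood at 1.79 and 1.67 FPKM. HSPA12B was listed at 0.00844 FPKM and the pseudogene HSPA7 at 0.00544 FPKM, and neither had a called gene TSS.

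All 3 HSP110 genes were above 20 FPKM. HSPA4, HSPH1 and HSPA4L, which encode the cytosolic exchange factors of HSP70, were listed at 50.1, 23.03 and 21.7 FPKM. The mitochondrial chaperonin genes HSPD1 and HSPE1 stood at 160 and 44.6 FPKM. They share a locus in the table with the readthrough gene HSPE1-MOB4, listed at 0.0940 FPKM. HSPD1 and HSPE1 start on opposite strands and run apart. The division of reads between HSPE1 and HSPE1-MOB4, which overlap, is uncertain.

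**Figure D1:**
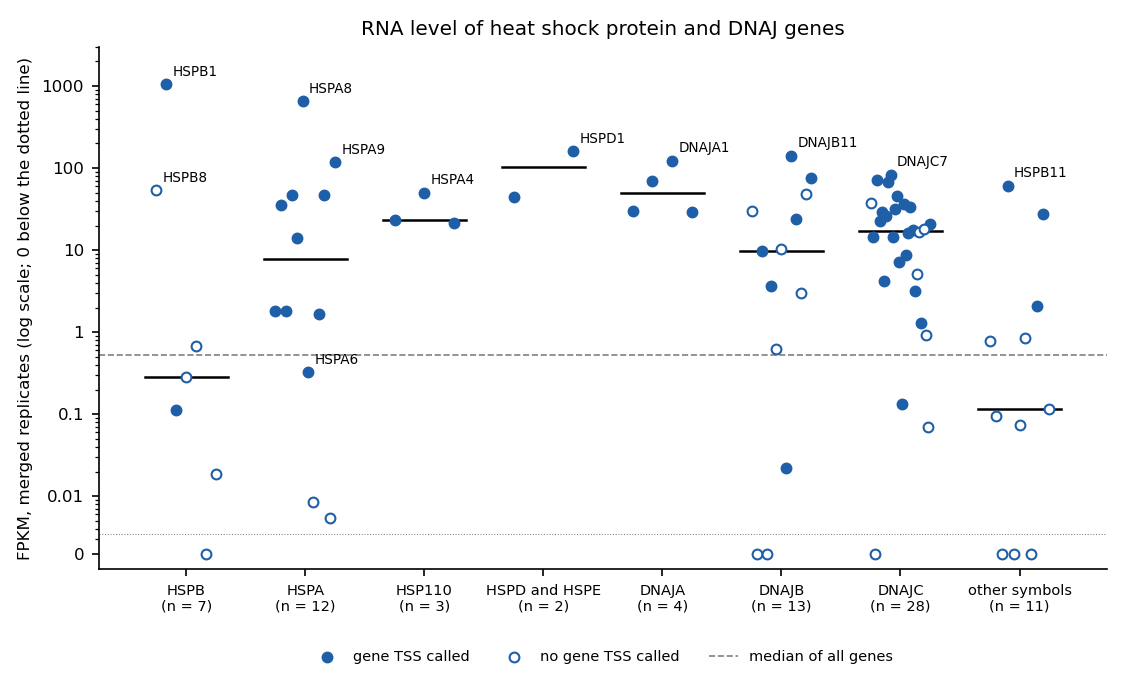
FPKM of the 80 member genes on a log scale, by family, with 1 merged value per gene and no replicate error. Filled points have a called gene TSS and open points do not, black lines are family medians and the dashed line is the median of all 26175 genes (0.528). HSPB1 (1049) and HSPA8 (661) lie above all other members, all 4 DNAJA genes lie above 20, and most open points lie near or below 1.

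Of the J-domain genes, the DNAJA family was the most uniform. All 4 DNAJA genes lay between 29.1 and 123 FPKM, with a median of 50.03. DNAJA1, a main cytosolic partner of HSC70, was highest at 123 FPKM, followed by the mitochondrial DNAJA3 (TID1) at 69.8, DNAJA4 at 30.3 and DNAJA2 at 29.1. The 13 DNAJB genes spread from 0 to 143 FPKM around a median of 9.66. DNAJB11 (ERDJ3), a soluble partner of HSPA5 in the endoplasmic reticulum, was the highest of all DNAJ genes at 143 FPKM. DNAJB1 (HSP40), the classical inducible J-domain protein, stood at 75.5 FPKM. DNAJB2 and DNAJB6, which act against protein aggregation, were listed at 48.3 and 29.8 FPKM and DNAJB12, a J-domain protein of the endoplasmic reticulum membrane, at 23.8 FPKM. DNAJB7 and DNAJB8 were listed at 0.

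The DNAJC genes are grouped by the J domain alone and otherwise differ in structure and place in the cell. Of 28 such genes, 24 reached an FPKM of 1 and 18 an FPKM of 10, and the median was 17.4 FPKM. The highest were DNAJC7 (TPR2), a cytosolic cochaperone of HSP70 and HSP90, at 83.1 FPKM, the splicing-associated DNAJC8 at 71.3, DNAJC14 at 68.5, DNAJC4 at 45.8 and DNAJC19, a subunit of the mitochondrial import motor, at 38.1. No DNAJC gene reached 100 FPKM, and DNAJC5G was listed at 0. The 11 remaining symbols hold antisense, readthrough and pseudogene entries and 3 genes named for heat shock proteins they bind or resemble. Of these, HSPB11 (now IFT25), an intraflagellar transport protein, was listed at 61.0 FPKM, the exchange factor HSPBP1 at 27.7 and HSPBAP1 at 2.06, and the other 8 were below 1.

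A gene TSS was assigned to the gene whose annotated transcript starts nearest on the same strand, within 1000 nt. In this way 51 of 80 members (63.8%) received a gene TSS, where 37.3% of all genes of the table did. These 51 genes had 53 gene TSSs of 10391 in all, 20 at HSP symbols, 3 of them HSPB11, HSPBAP1 and HSPBP1, and 33 at DNAJ symbols. DNAJA4 was the member with more than 1 gene TSS, at positions 78556666, 78556887 and 78558848 of chromosome 15. The median distance to an annotated transcript start was 6 nt for the members and 10 nt for all gene TSSs. When any gene TSS on either strand within 1000 nt of the listed locus was counted, 55 members had one. The 7 members counted only in this way were DNAJB7, HSPB2, DNAJC27-AS1, HSPB2-C11orf52, DNAJC25-GNG10, HSPE1-MOB4 and DNAJC9-AS1, each below 1 FPKM. HSPA1A, HSPA1B and HSPA1L were missed by that count because of their haplotype loci.

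RNA level and TSS call did not always go together, at the members about as often as at all genes. Of the 43 members with an FPKM of at least 10, 7 had no assigned gene TSS (16.3%), where 15.2% of all genes at that level had none. They were HSPB8 (53.7 FPKM), DNAJB2 (48.3 FPKM), DNAJC19 (38.1 FPKM), DNAJB6 (29.8 FPKM), DNAJC10, a disulfide reductase of the endoplasmic reticulum (18.1 FPKM), the mitochondrial DNAJC15 (16.9 FPKM) and DNAJB14 of the endoplasmic reticulum membrane (10.4 FPKM). Conversely, 4 of the 51 members with a gene TSS were below 1 FPKM (7.84%), where 6.35% of all genes with a gene TSS were. They were HSPA6 (0.325 FPKM), DNAJC5B (0.134 FPKM), HSPB7 (0.114 FPKM) and DNAJB13 (0.0220 FPKM). The gene TSS of DNAJC5B lay 821 nt from the nearest annotated start of the gene, the farthest of the 53, and that of HSPB7 lay 168 nt away, whereas those of HSPA6 and DNAJB13 lay within 1 nt.

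An upstream antisense TSS (uaTSS) is a start on the other strand, up to 1000 nt upstream of the gene TSS, from which transcription runs away from the gene. A uaTSS was called at 26 of the 53 member gene TSSs (49.1%, exact Clopper-Pearson 95% interval 35.1% to 63.2%), where 53.1% of all gene TSSs had one. Such intervals allow for counting error alone, because all calls are from 1 library and gene TSSs are not independent replicates. The share was 50% at HSP symbols and 48.5% at DNAJ symbols. The uaTSS lay 5 to 811 nt upstream, at a median of 213.5 nt, beside 200 nt over all gene TSSs. DNAJC16 had the nearest at 5 nt, and its gene TSS lay 370 nt from the annotated start.

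Among HSP genes with a uaTSS, several had it farther upstream than the median. The distance was 329 nt at HSPB1, 525 nt at HSPA8, 578 nt at HSPA9 and 516 nt at HSPH1. It was 616 nt at HSPA6 and 811 nt at HSPA1B. HSPA1A, nearly the same as HSPA1B over the 250 bases upstream, had its uaTSS at 211 nt. The sequences were not compared as far out as the uaTSS of HSPA1B. The authors called starts from uniquely mapped fragments, so starts in stretches that the pair shares can be missed. Whether this affected the calls was not tested. Among the other HSP genes, the uaTSS of some lay nearer. The distance was 26 nt at HSPA4L, 119 nt at HSPA12A and 205 nt at HSPA4. The J-domain genes DNAJA2, DNAJA1, DNAJA3 and DNAJB1 had theirs at 101, 171, 417 and 340 nt. DNAJA4 had one at 128 nt from its first and one at 466 nt from its last gene TSS, and none at the middle one.

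A downstream antisense TSS (daTSS) is a start on the other strand within the first 2000 nt of the gene, from which transcription runs back toward the gene TSS. The authors required a minimum number of reads and removed calls that could be another gene TSS or its uaTSS. Starts removed in this way count here as not called. A daTSS was called at 7 of 53 member gene TSSs (13.2%, exact Clopper-Pearson 95% interval 5.48% to 25.3%), where 28.4% of all gene TSSs had one. The share was 10.0% (2 of 20) at HSP symbols and 15.2% (5 of 33) at DNAJ symbols. Both antisense TSSs were called at 5 member gene TSSs (9.43%), beside 17.5% of all, and neither at 25 (47.2%), beside 35.9% of all. Among members with an FPKM of at least 10, a daTSS was called at 6 of 38 gene TSSs (15.8%, 6.02% to 31.3%). Of all gene TSSs at that level, 30% had one. With no other gene TSS within 5000 nt, the share was 6 of 35 (17.1%, 6.56% to 33.6%), beside 32.9% of all. Both intervals include the share of all gene TSSs, and both subsets are part of the same 53. The members' share was lower in each of these counts, and the difference was not tested.

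The 7 daTSSs were spread over 113 to 1578 nt downstream, at a median of 475 nt, beside 507 nt over all gene TSSs. The nearest, at DNAJC5B, was in an intron at 113 nt. The farthest, at DNAJA1, was in an exon at 1578 nt. In between lay the daTSSs of DNAJA4 at 299 nt in an exon, of the endosomal DNAJC13 at 419 nt in an intron, of DNAJB1 at 475 nt in an intron, of HSPA4 at 756 nt in an intron and of HSPA4L at 1069 nt in an exon. Small heat shock protein and chaperonin genes had 4 gene TSSs, of which 0 carried a daTSS, too few to set against the share of all gene TSSs, and those of the HSP genes belonged to 2 of the 3 HSP110 genes.

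The starts of 6 daTSSs are shown on their own strand, with capitals at the base before the start and the start itself, because the dinucleotide CA is the core of the initiator element. Of all 7 member daTSSs, 4 had it (57.1%, exact Clopper-Pearson 95% interval 18.4% to 90.1%), where 39.6% of all 2956 daTSSs did. The longer pattern CANW, in which W is A or T, was present at 2 of the 7 (28.6%), DNAJB1 and HSPA4L, where 25.5% of all daTSSs had it. With 7 starts, neither share can be told from that of all daTSSs. The start at DNAJC5B is counted but not printed. The windows are DNAJA1 (chr9:33026835-33026864, minus strand), DNAJA4 (chr15:78557172-78557201, minus strand), DNAJB1 (chr19:14628716-14628745, plus strand), DNAJC13 (chr3:132136793-132136822, minus strand), HSPA4 (chr5:132388518-132388547, minus strand) and HSPA4L (chr4:128703699-128703728, minus strand).
DNAJA1 daTSS: ttcccttttctttgCAtcagagagaacttc
DNAJA4 daTSS: cttgagcgccagctTCcgataggccttctt
DNAJB1 daTSS: gggaggggcagcccCAgacatgctagaagc
DNAJC13 daTSS: gcagcgccctgagcTAatgtcactcaaagc
HSPA4 daTSS: gccccgcccccactCAcgtgggacgctgac
HSPA4L daTSS: aggtcaatgccaacCAcagacatcccgccg

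**Figure D2:**
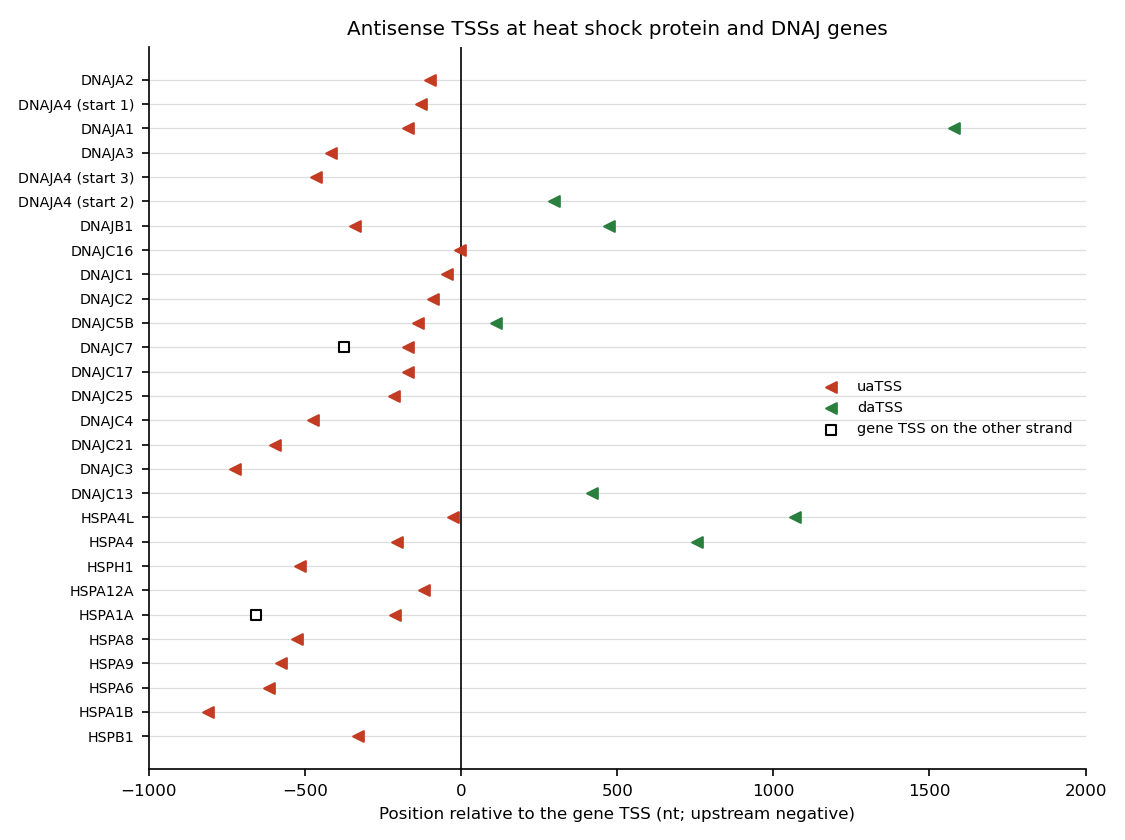
Positions of the uaTSS (red) and daTSS (green) relative to the gene TSS (vertical line, 0), in nt with upstream negative, for each member gene TSS that has one. The 3 gene TSSs of DNAJA4 are numbered by position, and open squares mark a gene TSS on the other strand; uaTSSs span 5 to 811 nt and the 7 daTSSs 113 to 1578 nt.

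Ranges of RNA level overlapped between the antisense classes. FPKM is 1 value per gene, and it was counted once for each gene TSS. DNAJA4, at 30.3 FPKM, therefore stands on both sides of the uaTSS and of the daTSS comparison. The median FPKM was 30.3 at the 26 member gene TSSs with a uaTSS (0.134 to 1049) and 23.8 at the 27 without one (0.0220 to 160). Over all gene TSSs the same medians were 19.5 and 13.7 FPKM. With a daTSS the median was 30.3 FPKM and without one 26.7 FPKM, beside 18.3 and 16.3 over all gene TSSs. The 5 member gene TSSs with both antisense TSSs had a median of 50.1 FPKM (0.134 to 123) and the 25 with neither one of 23.8 FPKM (0.0220 to 160), beside 21.3 and 13.95 over all gene TSSs. The 2 most abundant members, HSPB1 and HSPA8, both had a uaTSS and no daTSS, and HSPD1 and DNAJB11 at 160 and 143 FPKM had neither.

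A number of members start close to another gene on the opposite strand. An oppositely oriented gene TSS up to 1000 nt upstream was present at 9 of 53 member gene TSSs (17%), where 11.5% of all had one. Of the 7 pairs, 2 joined members to each other. HSPD1 (chromosome 2, position 198364590) and HSPE1 (position 198364881), which encode the 2 parts of the mitochondrial chaperonin, start 291 nt apart. HSPA1L (chromosome 6, position 31782663) and HSPA1A (position 31783320) start 657 nt apart, the former 397 nt from its annotated start. DNAJB11 was paired with TBCCD1 at 297 nt, DNAJB9, another partner of HSPA5, with PNPLA8 at 189 nt, and the mitochondrial DNAJC30 with BUD23 at 201 nt. DNAJC7 was paired with NKIRAS2 at 375 nt and HSPB11 with LRRC42 at 381 nt. The FPKM of these partners was 16.2 for TBCCD1, 8.83 for PNPLA8, 94.1 for BUD23, 48.0 for NKIRAS2 and 21.0 for LRRC42. Of the 9 gene TSSs, those of DNAJC7 and HSPA1A had a uaTSS. Of all 10391 gene TSSs, 5519 had a uaTSS, and 5325 of these were among the 9193 without such a partner. A uaTSS was thus also uncommon among the 1198 with a partner. Without the 9, the uaTSS share of the members was 54.5% (24 of 44), beside 57.9% of all gene TSSs without such a partner.

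Heat shock elements were counted more often upstream of the members than upstream of all gene TSSs, a difference that was not tested. An element of at least 2 units lay within 250 nt upstream of 14 of 53 member gene TSSs (26.4%, exact Clopper-Pearson 95% interval 15.3% to 40.3%), where 7.64% of all gene TSSs had one. An array of at least 3 units lay there at 5 (9.43%, 3.13% to 20.7%), where 0.260% of all gene TSSs, 27 in number, had one. The elements belonged mostly to the HSP genes, of which 10 of 20 gene TSSs had one (50%, 27.2% to 72.8%), and 5 had an array of at least 3 units. Among the DNAJ genes, 4 of 33 had an element (12.1%, 3.40% to 28.2%) and 0 had 3 units, for which the interval reaches up to 10.6%. The members' share was 17% within 100 nt and 37.7% within 500 nt upstream, where 2.80% and 17.1% of all gene TSSs had an element. In the 250 nt downstream of the gene TSS, by contrast, it was 11.3% (6 of 53) beside 7.19% of all. With HSPA1B left out and HSPD1 and HSPE1, which share 1 array, counted once, the share was 23.5%. Heat shock elements are known from these very genes, so their presence is a property of the sequence and says nothing of HSF1 binding in these cells.

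**Figure D3:**
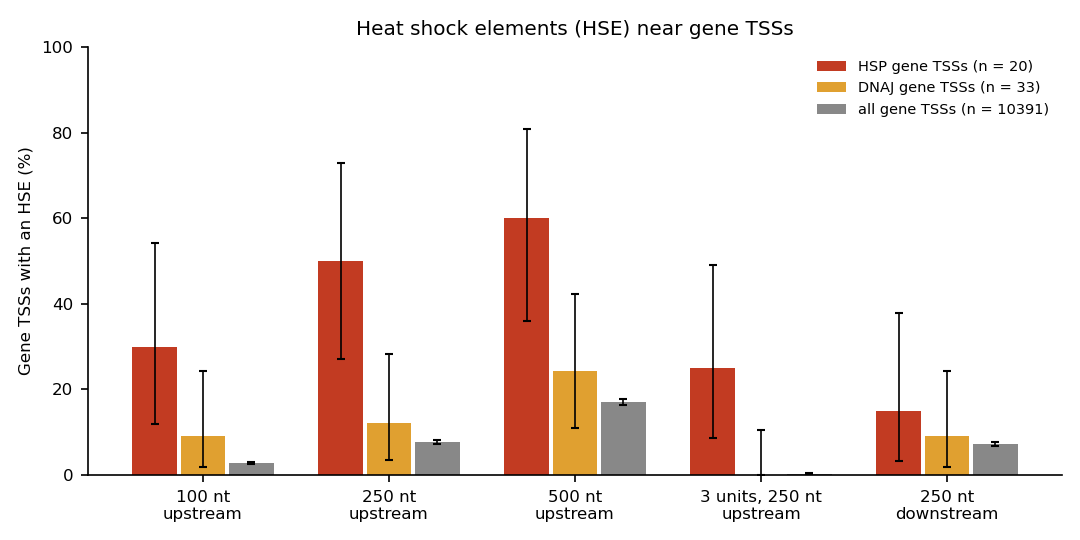
Percent of gene TSSs with a heat shock element (bars, axis from 0) for HSP symbols, DNAJ symbols and all gene TSSs, with exact 95% intervals that cover counting only. Within 250 nt upstream the shares are 50%, 12.1% and 7.64%, and downstream of the TSS they lie closer together, at 15%, 9.09% and 7.19%.

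In all, the 14 gene TSSs had 19 elements or arrays, 18 of them distinct, and 14 of the 19 began within 120 bases of the TSS. The arrays of at least 3 units began 55 and 230 bases upstream at HSPA8, 74 at HSPA6 and 18 at HSPH1. The 4-unit array between the chaperonin genes, at chr2:198364792-198364809, began 219 bases upstream of HSPD1 and 89 upstream of HSPE1. In the sequences printed above, the arrays nearest to the TSSs of HSPA8, HSPA6 and HSPH1 all run in the order TTC, GAA, TTC.

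The elements of 2 units began 32 bases upstream at HSPA9, 82 at HSPA14, 106 at HSPA1A, 107 at HSPA1B and 184 at HSPB1, with a further one at 98 in HSPH1 and at 180 in HSPA6. HSPA14 shares its TSS with a second annotated gene, MSANTD7. HSPA1A and HSPA1B both read GAATATTC at this place. Among the J-domain genes, DNAJB1 had elements at 80 and 50 bases and the middle TSS of DNAJA4 at 74 and 35, and in both genes the outer one reads GAAGGTTC and the inner one GAAGCTTC. DNAJB4, a close relative of DNAJB1, had one at 98 bases and DNAJA1 one at 198. No element was found at HSPA13, HSPA12A, HSPA2, HSPA1L, HSPA4, HSPA4L or HSPB7, nor at any DNAJC gene, in this window.

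Genes with an element were not all abundant. FPKM was again counted once for each gene TSS, so DNAJA4 stands in both groups. The median FPKM of the 14 gene TSSs with an element was 47.4 (0.325 to 1049), and that of the 39 without one was 21.7 (0.0220 to 143 at DNAJB11). Over all gene TSSs the medians were 16.4 and 16.9 FPKM. The range among genes with an element covered HSPB1 at its upper end and HSPA6, with an array of 3 units, at its lower end, and DNAJB4 stood at 3.64 FPKM. Among gene TSSs of genes with an FPKM of at least 10, 12 of 38 members (31.6%) and 7.84% of all had an element.

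**Figure D4:**
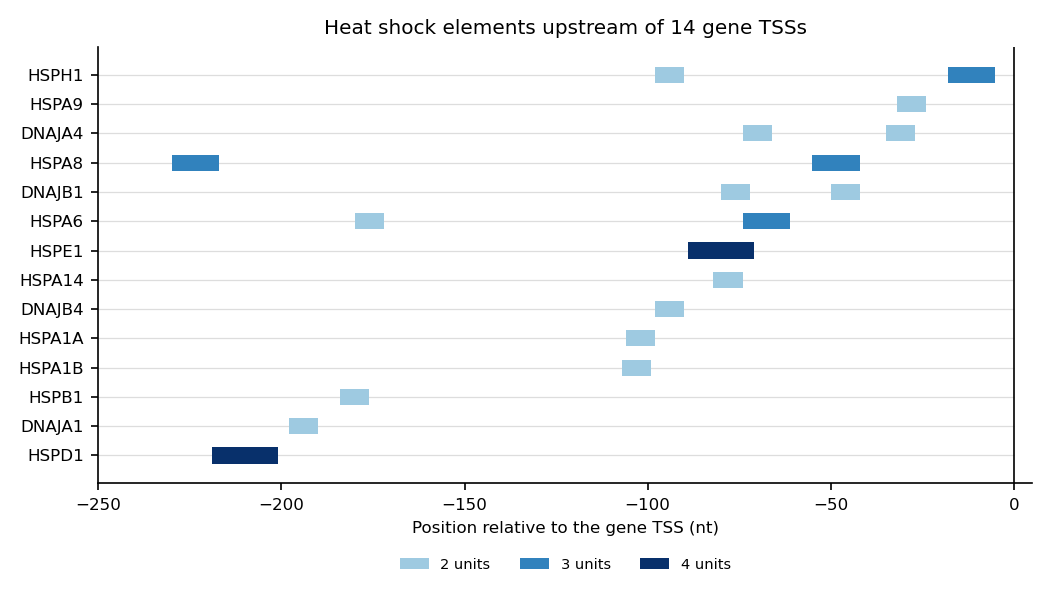
Heat shock elements (boxes) in the 250 nt upstream of the 14 member gene TSSs that have one, in nt relative to the TSS (0), shaded by the number of units in the array. Most boxes lie between -110 and the TSS, and the 4-unit box is the same stretch of DNA at HSPD1 and HSPE1.

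Other core promoter sequences were counted in the same way. A TATA-like sequence, TATAA or TATAT starting 35 to 24 bases upstream, was present at 6 of 53 member gene TSSs (11.3%, 4.27% to 23.03%), where 3.0% of all had one. It started 32 bases upstream at HSPA8, 31 at DNAJB1, 30 at HSPA1A, 31 at HSPA1B, 31 at HSPA2 and 30 at DNAJB4. All of these genes but HSPA2 also had a heat shock element, but this overlap was not counted over all gene TSSs. HSPA1A and HSPA1B, near-identical upstream, are both among them. An Inr-like sequence, CANW with the A at the start, was present at 12 (22.6%) beside 18.8% of all, and this was 8 of 20 (40.0%) at HSP symbols and 4 of 33 (12.1%) at DNAJ symbols. A GC box, GGGCGG on either strand within 50 nt upstream, was present at 10 (18.9%) beside 27.4% of all. A CCAAT box on either strand within 150 nt upstream was present at 13 (24.5%) beside 25.3% of all. The 500 nt around the TSS were rich in CpG at 45 (84.9%) beside 87.0% of all, and median GC content over 100 nt was 66% beside 68%.

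The wider chaperone network was described from 28 related genes. All 28 were listed at an FPKM of at least 1 and 22 at an FPKM of at least 10, with a median of 57.7. Of all genes of the table, 46.9% and 28.1% reached these levels, and their median was 0.528. The cytosolic HSP90 genes HSP90AA1 and HSP90AB1 were highest at 549 and 507 FPKM, both below HSPA8. HSPA5 stood at 200 FPKM, and STIP1, the adaptor that links HSP70 to HSP90, at 215 FPKM. BAG3, the partner of HSPB8, was listed at 24.9 FPKM. The transcription factor HSF1 was listed at 60.9 FPKM, HSF2 at 9.21 and HSF4 at 7.0. At the 30 gene TSSs of this list, a uaTSS was called at 18 (60.0%), a daTSS at 8 (26.7%) and a heat shock element at 5 (16.7%). Of all gene TSSs, 53.1%, 28.4% and 7.64% had them, so the uaTSS and daTSS shares were near those of all. Arrays of at least 3 units lay at HSP90AA1, STIP1 and CHORDC1, beginning 88, 45 and 27 bases upstream, so that the 27 such gene TSSs of the whole set included 5 members and 3 of these related genes.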

How the data were processed

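FPKM values were estimated and deposited by the authors with Cufflinks 2.2.1 after quality filtering, adapter removal with cutadapt 1.2.1, alignment with TopHat2 2.0.4, removal of duplicates with Picard 1.118 and merging of 3 replicates. TSS calls were deposited by the authors as hg19 positions from Start-seq replicate 1, aligned with Bowtie 0.12.8 (versions per the submitters' processing notes). Every call has a score of 0, and there are 0 columns of per-sample values, so depth, replicate error and tests are lacking. The second Start-seq library and the MNase-seq and FAIRE-seq libraries were left out, and 1 marker gene that was looked up is not reported here.

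Antisense calls were joined to gene TSSs by their shared identifier. Genes came from GENCODE lifted to GRCh37, in which all 80 members were matched, 2 of them under newer names, and sequence came from GRCh37. Of 10391 gene TSSs, 170 received no FPKM. For the CpG measure, a window of 500 nt had to hold 50% G and C or more, and its CpG count had to exceed 0.6 of that expected from its base composition. Python 3.11.15, numpy 2.4.6, pandas 2.3.3, scipy 1.17.1, biopython 1.88 and matplotlib 3.10.9 were used. The joins and motif searches were tested on simulated data.

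Members and lists were chosen with earlier results of these data known. Named were all HSP genes with a gene TSS or an FPKM of at least 1, the 5 highest genes of each DNAJ family, members with an FPKM of at least 10 and no gene TSS or below 1 with one, members with several gene TSSs, a heat shock element or an oppositely oriented gene TSS up to 1000 nt upstream, and the nearest and farthest daTSS. Other genes were named after their values were seen. Alternatives changed the pseudocount (0.1), FPKM minimum, symbols, windows, number of units and background. The downstream window, the CCAAT box, the bases at daTSSs, the split by symbol and by FPKM, and the counts without shared elements, without other symbols or at isolated gene TSSs for heat shock elements were added after the data were seen.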

Additional observations from a re-analysis of the deposited data

How the results depend on the processing

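Of 28 alternative settings, 23 gave a share, of which 2 lay outside the counting interval of the reported share. The other 5 gave a median or a difference of medians that has no interval. A single share or median has no direction, so only the differences in median FPKM could have reversed, and they did not. The median log2(FPKM + 0.1) of the members exceeded that of all genes by 4.53. With a pseudocount of 1 the difference was 3.33. Without the antisense, readthrough, pseudogene and binding-partner symbols counted outside the families it was 4.84. When members and all genes were both limited to an FPKM of at least 1, it was 0.98. When both were limited to genes with a called gene TSS, it was 0.63. Most of the difference on this scale thus lay in the many genes of the table at or near 0. The share of member gene TSSs with a heat shock element moved from 26.4% to 9.43% when 3 units were required and to 11.3% in the 250 nt downstream, as the stricter pattern and the other window define different features. Median GC content was 66% over 100 nt and 65.8% over 500 nt.

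The share of members with a gene TSS was 56.3% within 100 nt of an annotated start and 68.8% by the listed locus. No paired analysis was possible because the RNA-seq replicates were merged and the calls come from a single Start-seq library, and leaving out a replicate was not possible for the same reason. The depth behind the FPKM values and calls is unknown, so a missing call does not show that a start is absent.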
